A study of Rattus norvegicus with 11 samples.

Results

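The transcripts described here are those of hemoglobin and of the red cell precursor in rat striatum 3 days after intracerebral hemorrhage. They were taken as every gene whose symbol starts with Hba or Hbb, together with Alas2 and Slc4a1, and the rule found 4 of the 30560 genes listed. These were Hbb (ENSRNOG00000047098), Hba-a3 (ENSRNOG00000047321), Alas2 (ENSRNOG00000000167) and Slc4a1 (ENSRNOG00000020951), and 3 of them passed the filter on low counts. Slc4a1 did not pass it and is given by its values alone.

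RNA was sequenced from the striatum of 11 adult male Sprague-Dawley rats, 1 library per rat, all taken on day 3. Bacterial collagenase VII-S, which digests the vessel wall and so causes bleeding, was given into the right striatum. The 3 rats of the common hemorrhage group, IC, received 0.2 U in 1.0 μL of saline. The 3 rats of the severe group, IS, received 0.6 U in 3.0 μL. The 3 rats of IS-HA had the same severe hemorrhage and underwent hematoma aspiration 6 h later, in which 150 μL was withdrawn, about 75% of the hematoma. The 2 Normal rats had neither injection nor aspiration, so the comparisons with Normal do not separate bleeding from the injection itself. The tissue came from the injected side, and whether the vessels were flushed before it was taken for RNA is not given in the sources used here. Reads assigned to genes numbered 6701301 to 18817645 per rat, and IC replicate 4 stood apart from the other rats in the transcripts described here.

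Hemoglobin is a tetramer of alpha and beta chains that each hold a heme group. Mature red cells have lost their nucleus and make no new RNA, and the RNA left in blood belongs mostly to young red cells (reticulocytes) and to white cells. In brain, globin transcripts in bulk tissue can come from blood in vessels or in a clot, and low levels of hemoglobin chains have also been described in neurons and glia. In bulk tissue, fewer cells of a type and less RNA per cell cannot be told apart.

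Hbb encodes the adult beta chain and Hba-a3 an adult alpha chain. The RefSeq sequence directly before each start is shown for these genes because both chains are needed for hemoglobin and their levels were compared across rats. RefSeq's promoter table for the build GRCr8 held 3 of the 4 genes. Each line gives 120 bases on the strand of the gene, 5′ to 3′, with the matches of the motifs named next in capitals. The Hbb stretch lies at chr1:167663722-167663841 on the minus strand and the Hba-a3 stretch at chr10:15816944-15817063 on the minus strand.
Hbb: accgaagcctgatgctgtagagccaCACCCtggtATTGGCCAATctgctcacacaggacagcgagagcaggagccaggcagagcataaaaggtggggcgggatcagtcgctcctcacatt
Hba-a3: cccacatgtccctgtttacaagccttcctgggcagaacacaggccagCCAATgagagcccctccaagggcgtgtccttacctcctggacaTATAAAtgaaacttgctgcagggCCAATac

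The motifs searched, on both strands of the 250 bases before each start, were the CCAAT box, the CACCC box that Klf1 reads, the motif AGATAA and its variant TGATAA that GATA factors read, and the TATA box written as TATAAA. No match shared a base with a match of another motif. Hbb held CCAAT 2 times, on opposite strands next to each other at 86 and 81 bases before the start, and CACCC once at 95 bases. Hba-a3 held CCAAT 2 times, at 73 and 7 bases, and TATAAA once at 30 bases. Alas2 held AGATAA once, at 136 bases before its start. Of 33469 RefSeq promoters of the same length, 34.0% held CCAAT and 49.2% held CACCC. The share was 10.3% for AGATAA, 7.97% for TGATAA and 12.9% for TATAAA, so each of these short motifs is common. A match is a description of letters and not of a bound site.

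Hbb was the most abundant of the 4 genes. On the TPM scale, which divides counts by gene length, its level was 46.0 and 40.6 in the Normal rats, and 32.4, 37.8 and 129 in the IC rats. It was 22.0, 26.6 and 30.7 TPM in the IS rats and 20.3, 23.1 and 12.0 TPM in the IS-HA rats. All 6 rats with severe hemorrhage, aspirated or not, lay below both Normal rats, and IC replicate 4 lay far above every other rat. The mean was 43.3 ± 3.84 TPM in Normal (SD, n = 2), 66.4 ± 54.3 in IC (SD, n = 3), 26.4 ± 4.35 in IS (SD, n = 3) and 18.5 ± 5.76 in IS-HA (SD, n = 3). The order of the means was therefore IC, Normal, IS and IS-HA. Without IC replicate 4, the remaining IC rats had a mean of 52.7 normalized CPM (counts scaled to the size of the library), between 70.9 in Normal and 43.9 in IS on that scale. These values rest on 191 to 2328 counts per rat. By mean TPM over the 11 rats, 38.2, Hbb ranked 4036 of 30560 genes.

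Hba-a3 stood at 10.2 and 12.1 TPM in Normal, and at 5.88, 7.50 and 30.6 TPM in IC. It was 2.22, 7.06 and 6.11 TPM in IS and 7.82, 8.54 and 3.28 TPM in IS-HA. The Normal rats were above every rat with hemorrhage except IC replicate 4, and the ranges of IS and IS-HA overlapped. The mean was 11.2 ± 1.36 TPM in Normal (SD, n = 2), 14.7 ± 13.9 in IC, 5.13 ± 2.56 in IS and 6.55 ± 2.85 in IS-HA (SD, n = 3 each). The gene had only 6 to 85 counts per rat, which limits the precision of each value. Hbb was 2.59 to 9.89 times as high as Hba-a3 per length, with the lowest ratio in IS-HA replicate 1 and the highest in IS replicate 2.

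Alas2 encodes the erythroid form of aminolevulinate synthase, which starts heme synthesis in red cell precursors. Its level was 1.47 and 1.5 TPM in Normal, and 0.631, 0.808 and 4.06 TPM in IC. The IS rats had 0.626, 0.597 and 2.01 TPM and the IS-HA rats 0.786, 0.451 and 0.231 TPM. Every IS-HA rat lay below both Normal rats, while IS replicate 4 and IC replicate 4 lay above them. Counts were 2 to 40 per rat.

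Slc4a1 encodes band 3, the anion exchanger of the red cell membrane. It had 3 and 6 counts in Normal, 6, 12 and 17 in IC, 1, 2 and 2 in IS, and 2, 4 and 0 in IS-HA. On TPM the 3 IC rats (0.203, 0.320 and 0.740) lay above the Normal rats (0.086 and 0.176) and above the IS rats (0.0447, 0.0853 and 0.123). Such a lack of overlap was found in 32.4% of all tested genes for IC above Normal and in 18.7% for IS below IC, on normalized CPM. The count of 0 in IS-HA replicate 3 allows up to 0.296 CPM at 3 counts of that library. In a fit without the filter, edgeR's quasi-likelihood test gave Slc4a1 a log2 fold change of 1.60 in IC against Normal (standard error 0.91, adjusted p = 0.289) and of -2.24 in IS against IC (standard error 0.93, adjusted p = 0.235), so neither passed.

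**Figure D1:**
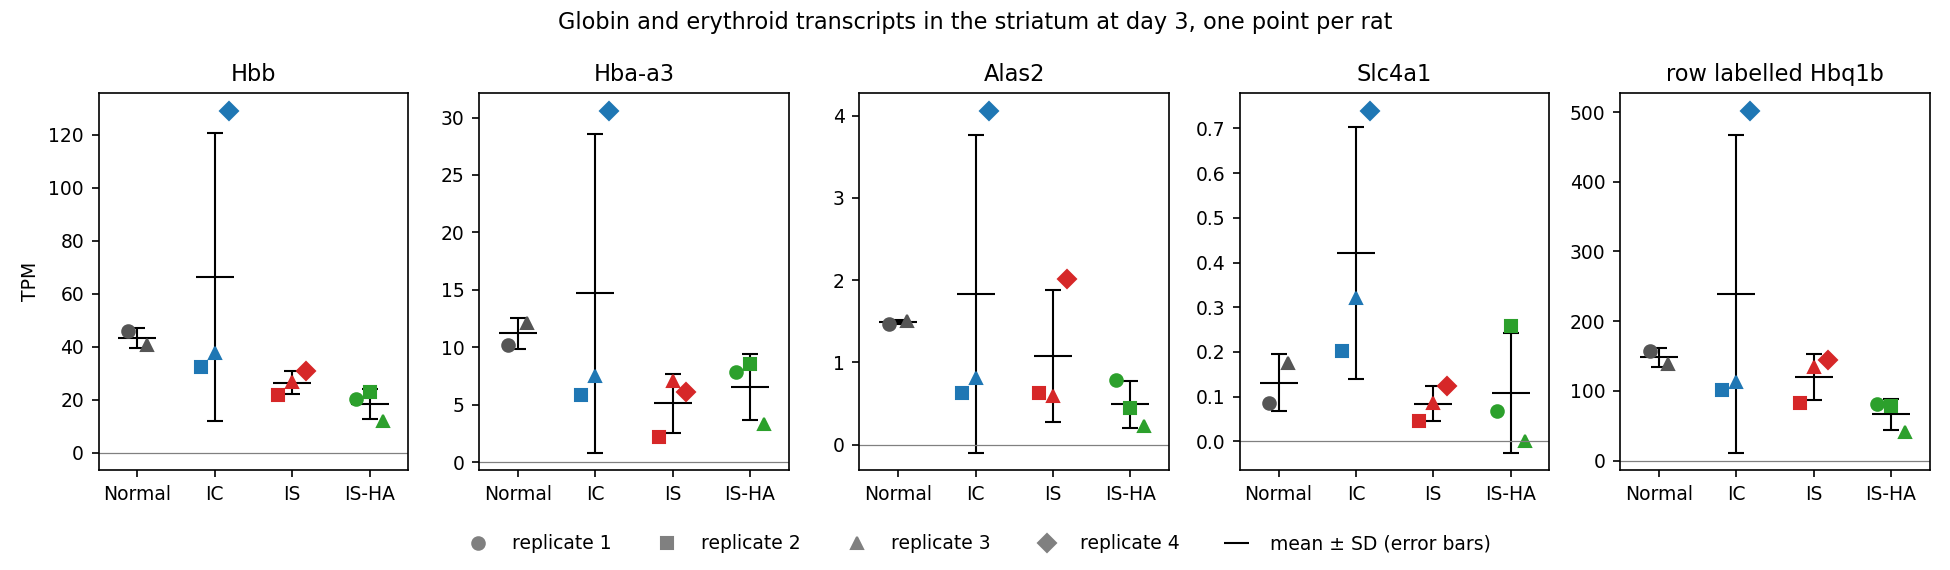
Level in TPM (vertical axis, scaled per panel) of the 4 genes and of the row labelled Hbq1b in Normal (n = 2), IC, IS and IS-HA (n = 3 each). Each point is a rat, symbols give the replicate number, and the bars are the mean ± SD. IC replicate 4 is the highest of the 11 rats in every panel, at 129 TPM for Hbb and 30.6 TPM for Hba-a3.

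Together, Hbb and Hba-a3 took a small share of each library. It was 0.00750% and 0.00616% of the assigned counts in the Normal rats, 0.00523%, 0.00611% and 0.0223% in IC, 0.00361%, 0.00464% and 0.00542% in IS, and 0.00331%, 0.00445% and 0.00196% in IS-HA. For IC replicate 4 the 95% Wilson interval was 0.0214% to 0.0232%, and for IS-HA replicate 3, the lowest, 0.00171% to 0.00225%. These intervals cover counting error only, since the reads carry no molecular identifiers and copies of 1 molecule may be counted more than once. The group means were 0.00683 ± 0.000953% in Normal (SD, n = 2), 0.0112 ± 0.00961% in IC, 0.00456 ± 0.000912% in IS and 0.00324 ± 0.00124% in IS-HA (SD, n = 3 each). All 6 rats with severe hemorrhage had a smaller share than the Normal rats. Without IC replicate 4 the IC mean was 0.00567 ± 0.000619% (SD, n = 2), below that of Normal.

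The first question was whether hemorrhage left more of these transcripts in the striatum than in Normal tissue. In IS against Normal, the log2 fold change was -0.69 for Hbb (standard error 0.57, edgeR adjusted p = 0.334, Benjamini-Hochberg over all tested genes). It was -1.09 for Hba-a3 (standard error 0.79, edgeR adjusted p = 0.267) and -0.49 for Alas2 (standard error 0.88, edgeR adjusted p = 0.664), which moved to -1.30 without IS replicate 4. A gene was called at an adjusted p under 0.05 and an absolute log2 fold change of at least 1. By edgeR, 0 of the 3 tested genes were called in IS against Normal, where 35.8% of the 15742 tested genes were. At an unadjusted p under 0.05, which 56.4% of all genes reached, the count was also 0 of 3. Hbb and Hba-a3 did not overlap between the groups in normalized CPM, with IS lower, as was so for 36.9% of all genes. With only these 2 groups in the fit, Hbb had a log2 fold change of -0.70, short of the fold cutoff, and an edgeR adjusted p of 0.0359, the lowest of its 19 alternatives, which reached 0.596.

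In IC against Normal the fitted changes were 0.61 for Hbb (standard error 0.59), 0.37 for Hba-a3 (standard error 0.75) and 0.25 for Alas2 (standard error 0.83) on the log2 scale. The adjusted p values by edgeR were 0.489, 0.760 and 0.863, and 0 of 3 genes were called, against 13.6% of all genes. The unadjusted p was under 0.05 for 0 of 3, against 34.2% of all genes. The sign of all 3 rested on IC replicate 4. Without that rat the log2 fold changes were -0.43 for Hbb, -0.85 for Hba-a3 and -1.15 for Alas2, none of them called.

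In IS-HA against Normal, all 3 tested genes were lower in every rat without overlap, a pattern found in 29.2% of all genes. The log2 fold change was -1.21 for Hbb (standard error 0.58, edgeR adjusted p = 0.126), -0.76 for Hba-a3 (standard error 0.77, edgeR adjusted p = 0.459) and -1.55 for Alas2 (standard error 0.93, edgeR adjusted p = 0.213). None was called, against 22.8% of all genes, and 0 of 3 had an unadjusted p under 0.05, against 44.8% of all genes. With IC replicate 4 left out of the fit, whose estimate of the spread all groups share, Hbb had the same log2 fold change of -1.21 and passed, with a standard error of 0.33 (edgeR adjusted p = 0.0261). Over the 20 alternatives for this value, the adjusted p ran from 1.52e-12 to 0.316. The lowest came from a replicate block in edgeR, a fit that keeps only 4 rats, replicates 1 and 3 of each group, and that also called Alas2 lower (-1.66, edgeR adjusted p = 0.0413). The shared numbers were not treated as pairs.

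The second question was whether the larger hemorrhage left more of these transcripts than the smaller one, and whether aspiration lowered them. In IS against IC, the log2 fold change was -1.31 for Hbb (standard error 0.53, edgeR adjusted p = 0.196), -1.46 for Hba-a3 (standard error 0.73, edgeR adjusted p = 0.253) and -0.74 for Alas2 (standard error 0.81, edgeR adjusted p = 0.573). By edgeR 0 of 3 were called, against 0% of all genes. Hbb alone had an unadjusted p under 0.05 (0.0310 by edgeR), as 22.2% of all genes did. These differences rested on IC replicate 4. Without it the log2 fold changes were -0.27 for Hbb (standard error 0.34, edgeR adjusted p = 0.655), -0.24 for Hba-a3 (standard error 0.58) and 0.66 for Alas2 (standard error 0.67). Without IS replicate 4 Alas2 was -1.55. On TPM every IS rat was below every IC rat for Hbb, but on normalized CPM IS replicate 4 (54.0) was above IC replicate 2 (49.2).

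In IS-HA against IS, the comparison that bears on aspiration, Hbb differed by -0.52 on the log2 scale (standard error 0.53, edgeR adjusted p = 0.766), Hba-a3 by 0.33 (standard error 0.77, edgeR adjusted p = 0.915) and Alas2 by -1.06 (standard error 0.93, edgeR adjusted p = 0.712). The 2 groups overlapped for each gene. By edgeR 0 of 3 were called, against 0.00635% of all genes, and 0 of 3 had an unadjusted p under 0.05, against 8.94%. The Hba-a3 difference was -0.08 when IS replicate 2, the rat with 6 counts, was left out, and the Alas2 difference was -0.25 without IS replicate 4. Standard errors of this size leave room for a change in either direction, so the values neither show a loss of globin RNA after aspiration nor that the groups were alike.

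In IS-HA against IC, Hbb showed its largest difference, -1.82 on the log2 scale (standard error 0.54, unadjusted p = 0.00609 and adjusted p = 0.841 by edgeR). No IS-HA rat overlapped the IC rats for Hbb, which was so, in the lower direction, for 4.36% of all genes. Hba-a3 differed by -1.14 (standard error 0.71) and Alas2 by -1.80 (standard error 0.87), both with an edgeR adjusted p of 0.841. By edgeR 0 of 3 genes were called, against 0% of all genes, and 1 of 3 had an unadjusted p under 0.05, against 4.97%. Without IC replicate 4 the differences were -0.78 for Hbb (standard error 0.34, edgeR adjusted p = 0.910), -0.41 for Alas2 (standard error 0.71) and 0.09 for Hba-a3 (standard error 0.57). DESeq2's Wald test and limma on log2(TPM + 1) also called 0 of the 3 genes in each of the 6 comparisons.

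**Figure D2:**
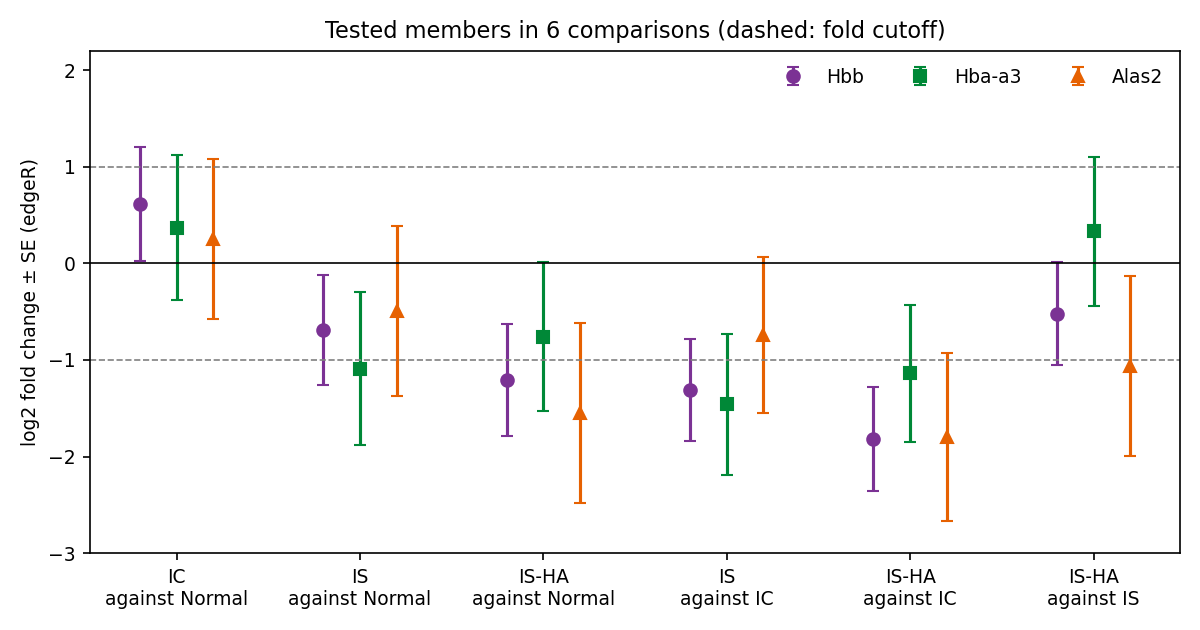
Log2 fold change of the 3 tested genes (vertical axis) in the 6 comparisons of the 4 groups (horizontal axis). Points are edgeR estimates, bars are ± 1 standard error, and dashed lines mark the fold cutoff. Hbb runs from 0.61 in IC against Normal to -1.82 in IS-HA against IC, and no point was called.

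IC replicate 4 had 4.18 times the mean of the other IC rats for Hbb in normalized CPM (220 against 52.7), 5.21 times for Hba-a3, 6.42 times for Alas2 and 3.23 times for Slc4a1. It was the highest of the 11 rats for all 4 genes. Its summed levels of white cell genes lay between those of the other IC rats. Neutrophil genes summed to 624 TPM in it, against 374 and 880 TPM in replicates 2 and 3. Genes of microglia and macrophages summed to 3300 TPM, against 2540 and 3430 TPM, and platelet genes other than Pf4 to 9.73 TPM, against 12.5 and 9.93 TPM. The part of these cells in its globin level was not tested.

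The levels of the tested members were related across rats by Pearson's r, with a lower r and rho once the 2 most extreme rats were left out. Over the 9 rats with hemorrhage, Pearson's r on log2 CPM was 0.85 between Hbb and Hba-a3, 0.89 between Hbb and Alas2 and 0.75 between Hba-a3 and Alas2. The two-sided exact permutation p values, adjusted over these 3 pairs, were 0.0182, 0.00846 and 0.0257 (unadjusted 0.0121, 0.00282 and 0.0257). Spearman's rho was 0.45, 0.68 and 0.42, with exact permutation p values of 0.230, 0.0503 and 0.270, adjusted to 0.270, 0.151 and 0.270. The 2 rats farthest from the median, IC replicate 4 and IS-HA replicate 3 for Hbb and IC replicate 4 and IS replicate 2 for Hba-a3, were then left out. Among the other 7 rats r was 0.37, 0.39 and 0.54, with exact permutation p values of 0.438, 0.474 and 0.242. Spearman's rho among these 7 rats was -0.11, 0.32 and 0.11, so its sign changed for Hbb with Hba-a3. With the 2 Normal rats added to them, rho was 0.47, 0.60 and 0.38. Leaving out the rats at the ends narrows the range and tends to lower r. These values therefore do not decide whether the relation held without those rats. With the 2 Normal rats included and the same rats left out, r was 0.59, 0.63 and 0.68 over 9 rats (exact permutation p = 0.0956, 0.0751 and 0.0466, unadjusted).

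A row outside the rule held more globin reads than all 4 members. The row labelled Hbq1b (ENSRNOG00000029886), a name for a theta-like gene of the alpha globin cluster, had 3449 and 2973 counts in Normal, 1880, 2664 and 7273 in IC, 1160, 1984 and 1473 in IS, and 1509, 762 and 520 in IS-HA. Its mean was 148 ± 13.2 TPM in Normal (SD, n = 2), 239 ± 228 in IC, 120 ± 33.0 in IS and 66.5 ± 22.3 in IS-HA (SD, n = 3 each). A second row with the same label was at 0 in every rat. Counts of this row were 2.39 to 4.06 times those of Hbb in each rat. In IS-HA against Normal its log2 fold change was -1.13 (standard error 0.66, edgeR adjusted p = 0.202), close to that of Hbb, and none of its 6 comparisons was called.

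RefSeq lists 8 rat genes with a symbol starting with Hba or Hbb, of which 2 have a row under that symbol, and the other 6 are not analysed here. Adult alpha genes are near-identical copies, and so are adult beta genes. How reads that fit several copies were counted is not given in the sources used here, so the levels of Hbb, Hba-a3 and the row labelled Hbq1b are uncertain as levels of single genes. Which gene the reads of that row came from was not settled. With that row added, the globin share of counts was 0.0248 ± 0.00361% in Normal (SD, n = 2), 0.0426 ± 0.0407% in IC, 0.0207 ± 0.00573% in IS and 0.0121 ± 0.00449% in IS-HA (SD, n = 3 each). The place of IC at the top again rested on replicate 4, since replicates 2 and 3 had 0.0180% and 0.0203%, below both Normal rats. IS overlapped Normal once it was added, since IS replicates 3 and 4 had 0.0227% and 0.0252% against 0.0273% and 0.0222% in Normal.

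**Figure D3:**
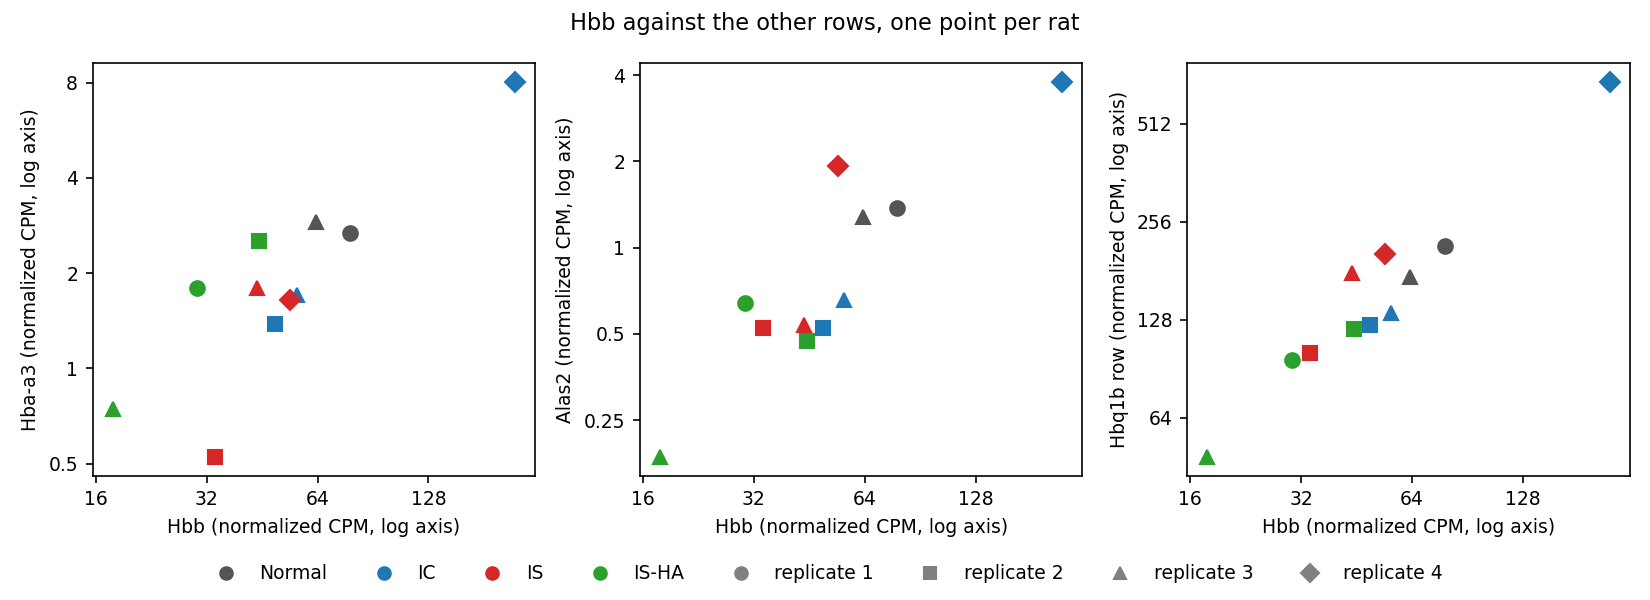
Normalized CPM of Hba-a3, Alas2 and the row labelled Hbq1b (vertical, log axes) against Hbb (horizontal, log axis). Each point is one of the 11 rats, colours give the group and symbols the replicate number. IC replicate 4 lies at the upper right of each panel, with 220 CPM of Hbb, and IS-HA replicate 3, with 17.8 CPM, at the left.

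Other genes of the red cell lineage were read by lists. Of 14 genes of heme synthesis all were tested, and 3 were called higher in IS than Normal, 1 in IC and 3 in IS-HA, with 0 lower. Over all genes 18.8%, 10.9% and 15.1% were called higher in these comparisons, and 17%, 2.66% and 7.71% lower. Scaling by library size alone, which moves the median of all genes by 0.13 to 0.14 in the comparisons with Normal, leaves the direction of Hbb, Hba-a3 and Alas2 as given above. The list's median log2 fold change was 0.16 in IS, -0.03 in IC and 0.20 in IS-HA, beside 0.02 over all genes in IS. Among those that rose were Tmem14c, a mitochondrial porphyrin carrier (2.13 in IS, edgeR adjusted p = 0.000438), and Slc25a39, a mitochondrial carrier (1.66, edgeR adjusted p = 0.00169). Alas1, the form of aminolevulinate synthase used outside red cells, had a log2 fold change of -0.98 in IS (edgeR adjusted p = 0.00515), short of the fold cutoff.

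Several genes that mark the red cell membrane were near 0. Over the 11 rats together Epb42 had 22 counts, Kel had 12 and Rhag had 0. Among 18 genes of the erythroid membrane and cytoskeleton, 11 were tested. In IS against Normal 3 were called higher and 4 lower, with a median of 0.14. The genes called higher included Cd44 (4.14) and Gypc (1.19), and those called lower were Add2 (-3.39), Ank1 (-2.40), Sptb (-1.86) and Dmtn (-1.17) on the log2 scale, with edgeR adjusted p from 7.22e-05 for Cd44 to 0.0219 for Gypc. Brain cells also express the 4 genes that fell, and white cells and astrocytes express Cd44. The list had 2 called higher and 1 lower in IC, and 2 higher and 4 lower in IS-HA.

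Of 9 tested regulators of red cell formation, 4 were called higher and 1 lower in IS against Normal, 3 and 0 in IC, and 3 and 0 in IS-HA. Gata1, the main erythroid transcription factor, had 2 counts in all 11 rats. Klf1, which activates the beta globin gene, had a log2 fold change of 0.53 in IS (standard error 0.53, edgeR adjusted p = 0.419), and Epor, the erythropoietin receptor, of -0.63 (standard error 0.52, edgeR adjusted p = 0.333). Lmo2 and Tal1, also active in other blood cells and in endothelium, rose by 2.21 and 1.70 in IS (edgeR adjusted p = 0.00046 and 0.000674). Nfe2 had 1 count in Normal and 70, 136 and 66 summed counts in IC, IS and IS-HA, and Gfi1b 0 and 11, 20 and 13. Bcl11a, a repressor of fetal globin genes that neurons also express, fell by 1.05 in IS (edgeR adjusted p = 0.0357).

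Of 13 tested genes of reticulocytes and red cell enzymes, 3 were called higher and 2 lower in IS against Normal, and 2 higher and 0 lower in both IC and IS-HA. Tent5c (4.94) and Gpx1 (3.40), which are not confined to red cells, rose most in IS on the log2 scale, with edgeR adjusted p of 3.13e-05 and 0.00165. Bpgm, a red cell enzyme that lowers the oxygen affinity of hemoglobin, had -0.13 (standard error 0.19, edgeR adjusted p = 0.574). Ahsp, the chaperone of free alpha chains, had 14 counts over the 11 rats, 9 of them in IC. Among other globins, Cygb, or cytoglobin, fell by 1.09 in IS (edgeR adjusted p = 0.00576), while Ngb, or neuroglobin, had 0.39 (standard error 0.39, edgeR adjusted p = 0.420). The embryonic genes Hbz, Hbe1 and Hbe2 and Hbg1 were at 0 counts in every rat.

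White cell genes were far higher in all 3 hemorrhage groups than in Normal. The summed level of 12 neutrophil genes was 11.7 to 11.9 TPM in Normal, 374 to 880 in IC, 1100 to 1480 in IS and 641 to 1380 in IS-HA, and all 9 tested genes were called higher in each comparison with Normal. Much of that sum was Ncf1 and Lcn2, with means of 158 and 282 TPM in IC and 371 and 276 TPM in IS. The untested genes Camp, Retnlg and Fpr1 had 43, 15 and 1 counts over all rats. Genes of microglia and macrophages summed to 302 to 435 TPM in Normal and 4640 to 5790 in IS, with 10 of 12 called higher in IS, 11 in IC and 11 in IS-HA. Those of lymphocytes summed to 2.36 to 2.95 TPM in Normal and 178 to 467 in IS, with 5 of 7 tested genes called higher in IS, 2 in IC and 3 in IS-HA.

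Platelet genes are another trace of blood. The 12 genes summed to 8.86 to 13.5 TPM in Normal, 118 to 318 in IC, 169 to 785 in IS and 90.8 to 296 in IS-HA. Of these genes 5 were tested, and Pf4, which macrophages also make, was the only one called in any comparison with Normal. Pf4 alone had a mean of 2.38 TPM in Normal, 188 in IC, 428 in IS and 182 in IS-HA. Without Pf4, a sum chosen after its values were seen, the other 11 came to 6.71 to 10.9 TPM in Normal, 9.73 to 12.5 in IC, 10.9 to 13.5 in IS and 9.37 to 14.8 in IS-HA. The platelet genes Gp1bb, Ppbp and Gp9 had 0, 3 and 6 counts over all rats. Markers of endothelium, the vessel lining, summed to 181 to 250 TPM in Normal and 338 to 355 in IS, with 2 of 11 called higher in IS, 1 in IC and 1 in IS-HA. The part of vessels or of tissue makeup in the globin levels was not tested.

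Genes that take up and break down hemoglobin and heme were called higher in each hemorrhage group, whereas neither Hbb nor Hba-a3 was called in those comparisons. Of 11 tested rows, 9 were called higher in IS against Normal, 3 in IC and 6 in IS-HA, with 0 lower, and the list summed to 3450 to 5340 TPM in Normal, 9550 to 15900 in IC, 24600 to 38300 in IS and 13400 to 26000 in IS-HA. Most of that sum was ferritin, which stores iron, with a mean of 3750 TPM for Fth1 and 223 TPM for the Ftl1 row with more reads in Normal, and 22600 and 3430 TPM in IS. The heme-degrading enzyme Hmox1 had 178 summed counts in Normal and 32705, 60952 and 25762 in IC, IS and IS-HA. Its log2 fold change in IC against Normal was 7.01 and in IS-HA against Normal 7.31 (edgeR adjusted p = 0.000115 and 6.44e-05). Fth1, the ferritin heavy chain, was 2.60 higher in IS on the log2 scale (edgeR adjusted p = 0.00251). Neuronal genes fell over the same comparison, 10 of 12 in IS, 2 in IC and 6 in IS-HA, from 7930 to 8160 TPM in Normal to 1550 to 4040 TPM in IS.

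**Figure D4:**
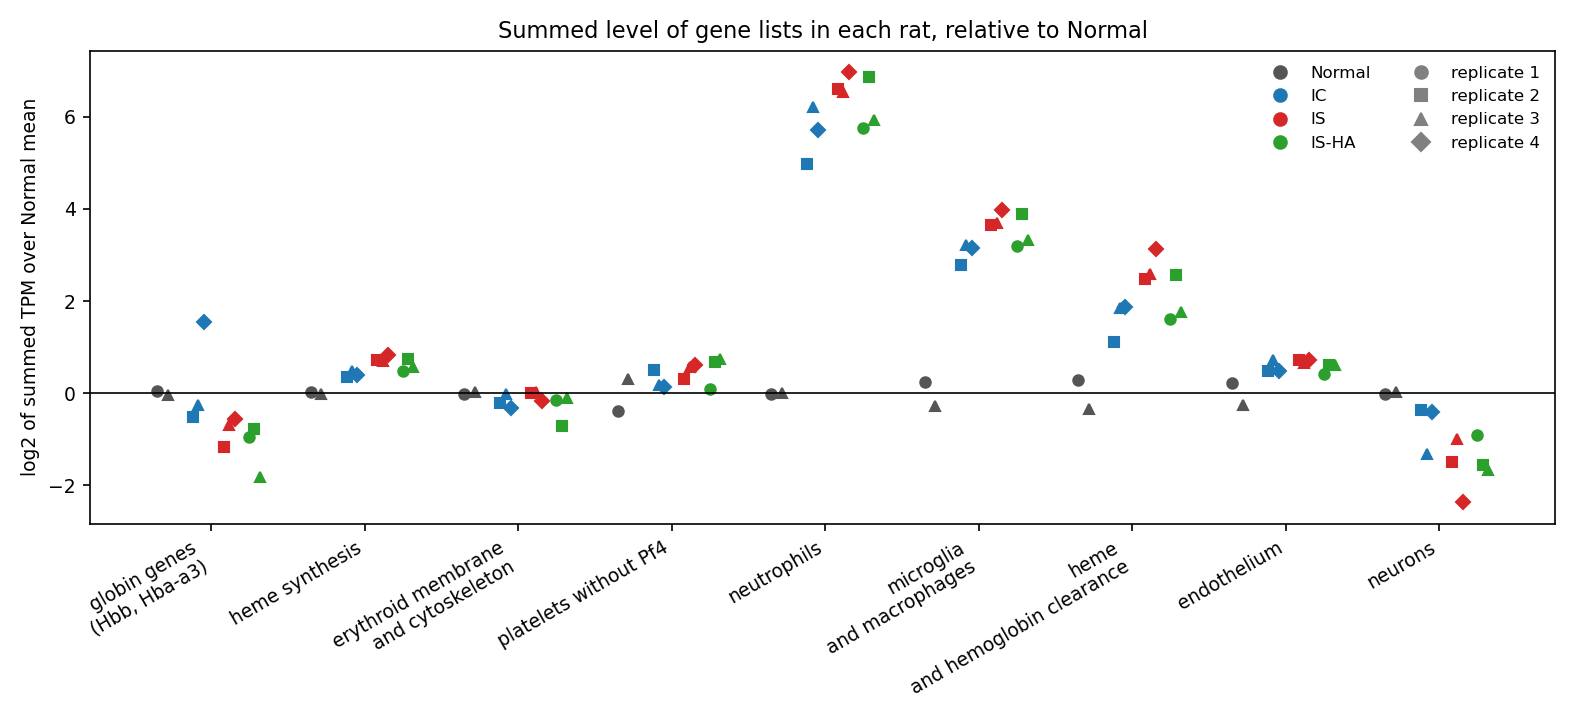
Summed TPM of each gene list in each rat, as log2 of its ratio to the Normal mean (vertical axis), for 9 lists (horizontal axis). Points are rats, colours give the group and symbols the replicate number. For the globin genes the severe groups lie below 0, at 0.281 to 0.675 times the Normal mean, and neutrophil genes lie 31.7 to 126 times above it.

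Genes with the pattern most like the summed globin counts were named by Pearson's r over the 11 rats on log2 CPM, as a description. The row labelled Hbq1b came first with r = 0.97, followed by Rnf5 (0.83), Zfp385c (0.82), ENSRNOG00000066130 (0.82), ENSRNOG00000070241 (0.80), Osbpl2 (0.80), COX2 (0.80), Cfap161 (0.79), Pwwp2b (0.79) and Fbxo39 (0.78). Among these 10 the gap between the first and the rest was wide, and neither Alas1 nor a gene of the white cell lists was among them. Alas2, a member and so not ranked here, had r = 0.89 with Hbb over the same 11 rats on log2 CPM. Over the 9 rats with hemorrhage r was 0.97 for the row labelled Hbq1b, 0.87 for Rnf5 and 0.77 to 0.84 for the rest of the 10. Both sets held IC replicate 4, and r without that rat was not computed. Zfp385c had only 119 counts and Fbxo39 293 over the 11 rats. All these values come from the same 11 libraries.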

How the data were processed

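Poly(A) RNA of the striatum was made into stranded libraries and sequenced as paired reads of 150 bases. Per the labels, the authors' processing notes name fastp 0.20.0, HISAT2 2.1.0, SAMtools 1.9 and featureCounts with the build mRatBN7.2. The strand setting and the treatment of reads that fit several genes are not given in the sources used here. The authors gave counts as whole numbers, not normalized, and deposited beside them TPM, which divides by gene length and scales each library to 1 sum. Replicates were separate animals per the labels and methods, and 0 columns were left unmatched.

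The members and gene lists were chosen with earlier results of these data known. Genes were filtered with filterByExpr, normalized by TMM and tested with edgeR 4.0.16 (quasi-likelihood, 1 fit over the 4 groups of 11 rats, Benjamini-Hochberg over 15742 genes) in R 4.3.3. Standard errors are the log2 fold change over the square root of F. Normalized CPM used a prior count of 0.5 on the log scale. Alternatives were DESeq2 1.42.0, limma 3.58.1 on log2(TPM + 1), other scalings, filters and cutoffs, each rat left out and a replicate block. The common dispersion was 0.0691, and 0.193 for Hbb, 0.322 for Hba-a3 and 0.390 for Alas2. On data simulated for IS against IC (15742 genes, 200 changed), edgeR recovered 7.5% of log2 changes of 1, 81.5% of 2 and 93.5% of 3. The changed genes were drawn at random from all tested genes and scored on adjusted p alone, without the fold cutoff. The tested members varied more than the common dispersion, so these shares need not hold for them.

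All members were named, with any tested gene of the erythroid, heme synthesis and other globin lists, and at most 3 most-counted genes of the other lists. The 10 genes most like the globin sum, members left out, were named too. Genes named for being near 0 were picked after their counts were seen. Ca1, Ca2, Rhex, Hbq1 and Ly6c1 had no row under those symbols. Promoter windows came from RefSeq, build GRCr8, which differs from the build of the counts, and were matched by gene ID. The sequence before Slc4a1 was not used here. Correlations were tested by exact permutation of pairings, two-sided, or by 100000 permutations over 11 rats. Intervals of shares are Wilson's at 95%, and a count of 0 allows 3 counts. Some genes of the lists are not reported here.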

Additional observations from a re-analysis of the deposited data

How the results depend on the processing

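The count of called members was 0 under the other scalings, filters, tools and cutoffs that were run, with these exceptions. At an unadjusted p with the fold cutoff, 1 gene (Hbb) was called in IS against IC and 1 (Hbb) in IS-HA against IC, both lower. In IS-HA against Normal the count was 0 to 1 with 1 rat left out, 1 being Hbb without IC replicate 4. With 1 rat left out in turn, the log2 fold changes in IC against Normal ran from -0.43 to 0.96 for Hbb, -0.85 to 0.77 for Hba-a3 and -1.15 to 0.69 for Alas2. Those in IS against IC ran from -1.55 to 0.66 for Alas2, and those of Hba-a3 from -1.54 to 0.09 in IS-HA against IC. IC replicate 4 gave the end of opposite sign in each. In IS-HA against IS, Hba-a3 ran from -0.08, without IS replicate 2, to 0.67, and limma on log2(TPM + 1) gave Alas2 -0.01 in IC against Normal. The cause was not tested.

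The replicate numbers are shared by different animals, and the mean correlation of same-numbered deviations was 0.0328 in IS against IC and -0.147 in IS-HA against IC, so no pairing was used. A replicate block, which keeps only the 2 shared numbers and so 4 rats of IS-HA and Normal, called 2 genes lower, Hbb (-1.60) and Alas2 (-1.66), and 0 in IS against IC, IS-HA against IS and IS-HA against IC, where 2 of the members were tested. IS against Normal and IC against Normal share 1 number and could not be blocked.

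As a share of TPM, the 2 globin genes took 0.00545% in Normal and 0.00315% in IS, in place of shares of counts. With the row labelled Hbq1b, an addition chosen after the data were seen, the shares of counts were 0.0248% in Normal, 0.0426% in IC, 0.0207% in IS and 0.0121% in IS-HA. Pearson's r between pairs of members kept its sign and its side of the threshold over all 11 rats and on log2(TPM + 1). Spearman's rho passed over 11 rats for Hbb with Hba-a3 (0.69, permutation p adjusted to 0.0346) and Hbb with Alas2 (0.78, permutation p adjusted to 0.0192), which it did not over the 9 rats with hemorrhage. Over all genes DESeq2 called 262 higher and 349 lower in IS against IC, 43 and 20 in IS-HA against IS, and 9 and 8 in IS-HA against IC, where edgeR called 0, 1 and 0 in all. On the data simulated for IS against IC, DESeq2 recovered 40.5%, 88.5% and 95% of log2 changes of 1, 2 and 3. Of its calls there 27%, 17.3% and 15.6% were false, against 6.25%, 4.12% and 4.1% for edgeR, which recovered fewer. Scaled by library size alone, 90.6% of the calls in IC against Normal and 77.3% of those in IS-HA against Normal were higher, in place of 80.4% and 66.3%. Low counts limit Hba-a3, Alas2 and Slc4a1, and 2 or 3 rats per group limit every test.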
